A study of Mus musculus with 13 samples.

Results

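Cadherins and protocadherins are adhesion proteins of the cell surface. Their genes were taken by name alone, as every gene whose symbol is Cdh followed by a number or begins with Pcdh. This gave 92 genes. The table of dissociated neurons, with 15114 genes, held 47 of them, and the table of brain sections, with 32285 genes, held all 92, so that 45 were measured in the sections only. By family, the cell table and the section table held 3 and 5 type I classical cadherins, 11 and 13 type II classical cadherins, and 2 and 5 other cadherins. They held 4 and 4 delta-1 protocadherins, 4 and 5 delta-2 protocadherins, and 1 and 3 other non-clustered protocadherins. Of the clustered protocadherins, they held 2 and 14 alpha genes, 19 and 22 beta genes, and 1 and 21 gamma genes.

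The tissue was the retrosplenial cortex, a midline cortical area, of wild-type mice. The labels name no treatment, and every sample carried the wild-type genotype. Neurons of B6 mice were microdissected at an anterior, a medium and a posterior level, dissociated and pooled across acute slices, which gave 765 cells in 11 samples from 3 animals. The second assay used Visium slides, whose spots each read the RNA of a patch of tissue wide enough for several cells. It covered 2 wild-type sections, called S4 and S8, cut at 10 µm from frozen brain and stained for NeuN and DAPI, with 1022 and 951 spots.

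Classical cadherins bind cadherins on the facing cell through their outer repeats and reach the actin skeleton through catenins at their inner tail. Type I and type II members differ in the binding face, and the type II genes are known for patchy expression across brain nuclei and cortical layers. Delta protocadherins are single genes spread over the genome, of which the delta-2 group can recruit the actin regulators of the WAVE complex. The alpha, beta and gamma protocadherins lie in 1 array of genes. Their promoters are chosen in different combinations in different neurons, and the resulting mix of isoforms takes part in the recognition of a neuron's own branches.

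Clusters of neurons were drawn from all other genes, without cadherins, protocadherins or the partner genes listed further on, and 11 clusters resulted. Including those genes gave the same clusters (adjusted Rand index 1). Clusters 1 to 8 had at least 10 cells in 2 or 3 animals and are called classes. Class 1 (203 cells) was led by Calb1, Penk and Ddit4l, class 2 (122 cells) by Thsd7a, Pygm and Hsd11b1, and class 6 (70 cells) by Ptprm, Aldh1l1 and Tmem215. Class 8 (38 cells) was led by Calb1, Ddit4l and Penk. By a fixed list of markers, class 3 (76 cells) and class 7 (65 cells) were layer 5 extratelencephalic-like, class 4 (74 cells) was layer 6 intratelencephalic-like, and class 5 (71 cells) was layer 6 corticothalamic-like. Cluster 11 (11 cells) was layer 6b-like, while clusters 9 and 10 kept no name. The rule for these names was set after seeing the data.

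The neuron label held. Slc17a7, the vesicular glutamate transporter of cortical excitatory neurons, had a count in 756 of 765 cells, and Gad1, which makes the transmitter of inhibitory neurons, stood at 0.404 CPM over all cells. CPM are counts of a sum of cells or spots scaled to a common total per library. Median counts per cell were 65843, 132797 and 185995 in animals 1, 2 and 3, and totals per sample ran from 2306470 to 15974543. All 33 animal 1 and 41 animal 2 cells of class 3 came from the posterior level, and animal 3 gave only 2, too few for a sum. Within class 3, a part of the level therefore cannot be told apart from the class. The posterior level of these animals also held cells of other classes. The median depth of class 8 was 77921.5 counts per cell. Oligodendrocyte markers, all 4 of which were in the table, summed to between 29.1 and 979 CPM per animal and class, highest in class 7 of animal 1. Mural cell markers reached 758 CPM in class 5 of animal 1 and at most 8.5 elsewhere. The part of these other cells in the results below was not tested.

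Of the 47 members in the cell table, 19 differed in at least 1 class, against 18.1% of the 13315 genes tested. All 47 were in that test. A gene was called where edgeR's quasi-likelihood test on counts summed per animal and class gave an adjusted p under 0.05 and the log2 level differed by at least 1 from the mean of the log2 levels of the other classes. The calls lay almost entirely outside the clustered protocadherins: 18 of the 25 cadherins and non-clustered protocadherins were called, and 1 of the 22 clustered genes. The type I cadherins were called in 3 of 3 cases, type II in 6 of 11, other cadherins in 1 of 2, delta-1 in 3 of 4, delta-2 in 4 of 4, and Pcdh20 was called as well. In all there were 45 calls, 31 higher and 14 lower.

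By class, the members called numbered 6 in class 1 (3.75% of all genes tested), 6 in class 2 (7.03%), 5 in class 3 (2.61%) and 7 in class 4 (5.09%). They numbered 9 in class 5 (5.21%), 3 in class 6 (1.58%), 7 in class 7 (3.67%) and 2 in class 8 (4.03%). The median size of a log2 difference over members outside the clusters and over classes was 1.04, against 0.43 over all genes. For the clustered genes it was 0.94, with a median SE of 1.17, against an SE of 0.48 over all genes and 0.58 over the other members. CPM are not per gene length, so levels are compared between classes for a gene and not between genes. Where another class held 3 counts or fewer for a gene, the fitted fold depends on the prior count, and the levels and the call are given without it. This held for 22 of the 45 calls. Leaving out animal 1, 2 or 3 kept 28, 20 and 29 of the 45 calls, and the calls that were lost are given with their genes. DESeq2 kept 41 and lost Cdh15 in class 1, Pcdhb10 in class 2, Pcdh8 in class 7 and Pcdh20 in class 8. With cells thinned to 50000 counts 34 were kept; lost were Cdh15 and Pcdh11x in class 1, Cdh22 and Pcdhb10 in class 2, Cdh4 and Cdh15 in class 3, Cdh20 in classes 4, 5 and 7, Cdh13 in class 5 and Cdh7 in class 6.

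**Figure D1:**
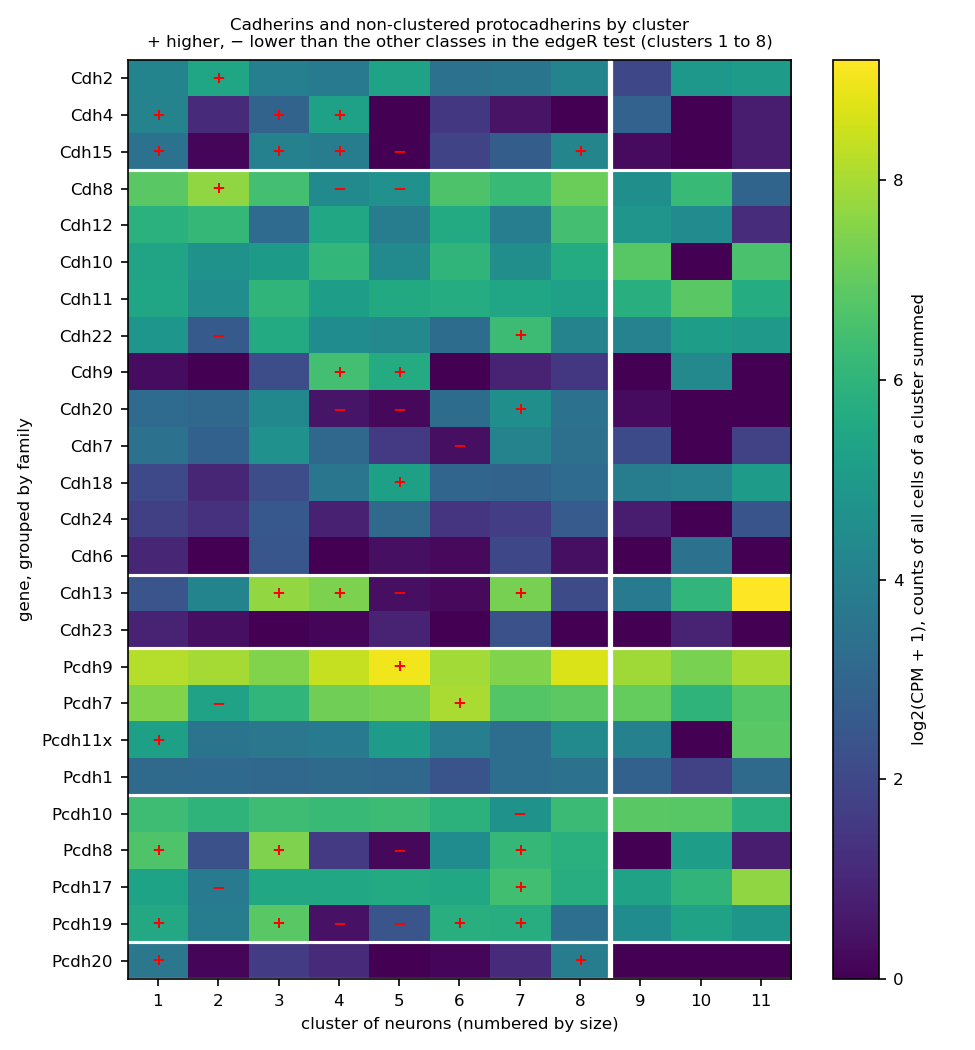
Level of the 25 cadherins and non-clustered protocadherins of the cell table (rows, grouped by family) in the 11 clusters of neurons (columns), as log2(CPM + 1) of the summed counts, with + and − for members called higher or lower in classes 1 to 8. Clusters 9 to 11, right of the white line, were not tested; Cdh13 is brightest in cluster 11 and Cdh9 in class 4.

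The 3 type I cadherins differed in the classes that carried them. Cdh2 (N-cadherin), the main cadherin of neural tissue, was highest in class 2. Its levels there were 56.8, 40.3 and 41.5 CPM in animals 1, 2 and 3, a mean of 46.2 ± 9.20 (SD, n = 3) against 15.8 in the other classes. The lowest of the 3 lay below the 48.8 CPM of class 5 in animal 3, so the groups overlapped. On the log2 scale it was higher by 1.92 ± 0.38 (SE; edgeR adjusted p = 0.00186), and without animal 1 it was 1.36 with an adjusted p of 0.0978.

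Cdh4 (R-cadherin), which marks subsets of neurons during brain development, was carried by class 4 and class 1. In class 4 it stood at 25.4, 35.8 and 42.3 CPM, a mean of 34.5 ± 8.56 (SD, n = 3) and 8.22 times the mean of the other classes. In class 1 it stood at 26.9, 16.9 and 15.7 CPM, a mean of 19.8 ± 6.16 (SD, n = 3). Every animal's value in these classes was above every value of the other 6 classes, in which Cdh4 was at 0 in class 5 and class 8. Both were called, with edgeR adjusted p of 0.000638 in class 1 and 5.43e-05 in class 4. Class 3, at 8.18 and 6.03 CPM, was also called higher, because the test compares log levels and 3 classes were near 0. Its plain mean was 7.11 CPM against 8.11 in the others. With counts summed per sample over classes 1, 2, 3 and 6 the log2 difference was −0.90 (adjusted p = 0.899), and the call was lost without animal 1 (adjusted p = 0.353) and without animal 2 (0.421).

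Cdh15 (M-cadherin), best known from muscle, was near 0 in classes 2 and 5 and low in the other 6. Levels were 21.7 and 12.5 CPM in class 3, 22.1 and 12.4 in class 8, 9.13, 9.86 and 17.7 in class 4, and 11.5, 5.05 and 12.2 in class 1. All 4 were called higher, and class 5 was called lower, with 0 in all 3 animals. Class 7 held 1.89, 4.599 and 6.796 CPM and class 6 held 3.98 and 2.25, neither called, and class 2 held 0, 0 and 0.26. Each of the 5 calls was lost without at least 1 animal. Without animals 1, 2 and 3 the adjusted p was 0.256, 0.133 and 0.24 in class 1, and 0.067, 0.0884 and 0.127 in class 4. In class 3 it was 0.286 without animal 1 and 0.199 without animal 2. In class 5 it was 0.079 without animal 2 and 1 without animal 3, and in class 8 it was 0.314 and 0.0599.

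Among the type II cadherins, Cdh8 and Cdh9 took nearly opposite classes. Both are known as layer- and area-restricted cadherins that take part in the matching of synaptic partners. Cdh8 was highest in class 2, at 119.6, 231.4 and 207.7 CPM, a mean of 186 ± 58.9 (SD, n = 3) against 78.6 in the other classes. It was lowest in the layer 6-like classes 4 and 5. Class 4 held 6.09, 23.9 and 20.7 CPM, and class 5 held 13.9, 23.9 and 26.8. No value of these 2 classes reached the 67.8 CPM that was the lowest in any other class, whereas class 2 overlapped with classes 1 and 8. The log2 difference was 1.58 ± 0.18 in class 2, −2.31 ± 0.26 in class 4 and −1.93 ± 0.26 in class 5 (SE), and the smallest edgeR adjusted p of these was 8.36e-06. With counts summed per sample over classes 1, 2, 3 and 6 alone, the difference in class 2 was 0.96 (adjusted p = 0.000146), under the fold required.

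Cdh9 was found in the same 2 layer 6-like classes. Class 4 held 80.1, 93.3 and 88.3 CPM, a mean of 87.3 ± 6.67 (SD, n = 3), and class 5 held 45.0, 52.9 and 48.5, a mean of 48.8 ± 3.94 (SD, n = 3). The highest value of any other class was 5.64 CPM, in class 3 of animal 2, and class 2 was at 0 in 3 of 3 animals. Both classes were called higher, at 11.2 and 3.68 times the mean of the other classes, with an edgeR adjusted p of 2.46e-06 in class 4.

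The promoters of Cdh8 and Cdh9 are shown because these genes took nearly opposite classes. Each is the 250 bases before the start of transcription in RefSeq on GRCm38.p6, 5′ to 3′ on the strand of the gene, at chr8:99416472-99416721 (minus strand) and chr15:16728665-16728914 (plus strand). Capitals mark a CCAAT box, found 19 and 74 bases before the start.
Cdh8: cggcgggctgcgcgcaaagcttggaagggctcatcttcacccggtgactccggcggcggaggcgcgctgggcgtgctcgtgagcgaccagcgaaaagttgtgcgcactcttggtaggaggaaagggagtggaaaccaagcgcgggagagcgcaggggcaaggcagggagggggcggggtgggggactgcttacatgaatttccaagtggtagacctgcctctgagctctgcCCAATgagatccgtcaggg
Cdh9: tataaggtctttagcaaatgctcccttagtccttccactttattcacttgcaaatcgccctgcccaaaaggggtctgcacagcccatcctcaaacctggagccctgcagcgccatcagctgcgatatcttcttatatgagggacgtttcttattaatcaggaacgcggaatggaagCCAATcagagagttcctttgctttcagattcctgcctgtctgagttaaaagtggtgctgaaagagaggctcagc
The letters CCAAT, on either strand, occurred in 33.8% of all 32851 promoters of that length and in 15 of the 25 promoters matched to members, which belong to 14 of 22 matched genes. GC content was 64.4% for Cdh8 and 48% for Cdh9, beside a median of 52.4% over all promoters. A match of letters is a description of the sequence and shows no binding.

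Cdh22 and Cdh20 led in class 7, the layer 5 extratelencephalic-like class drawn from all levels. Cdh22, a cadherin of brain and pituitary, stood there at 86.7, 100.5 and 61.8 CPM, a mean of 83.0 ± 19.6 (SD, n = 3) against 18.9 elsewhere. All 3 values lay above every other value, the nearest being 53.3 CPM in class 3 of animal 2. Class 7 was higher by 2.57 ± 0.40 on the log2 scale (SE; edgeR adjusted p = 0.000518). In class 2 it was low, at 5.13, 4.49 and 5.80 CPM, with a log2 difference of −2.13 ± 0.57 and an adjusted p of 0.0185. The low call did not hold without animal 1, 2 or 3, with adjusted p of 0.0829, 0.0916 and 0.114.

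Cdh20, which is also expressed by cells of the oligodendrocyte lineage, stood at 29.2, 14.8 and 28.5 CPM in class 7, a mean of 24.2 ± 8.10 (SD, n = 3). It was called higher there and lower in classes 4 and 5, which held 0, 1.15 and 0 and then 1.73, 0 and 0 CPM. The call in class 7 was lost without animal 1 (adjusted p = 0.0742) and without animal 3 (0.154). In class 4 it was lost without animal 1, 2 or 3 (1, 0.0627 and 0.155), and in class 5 without animal 2 (1) and animal 3 (0.123). Oligodendrocyte markers summed to 979 CPM in class 7 of animal 1, and to 126 and 137 in class 7 of animals 2 and 3. In class 4 of animal 1, where Cdh20 was at 0, they summed to 576 CPM. The part of these markers in the Cdh20 level was not tested.

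Cdh7 and Cdh18 had 1 call each. Cdh7 was called lower in class 6, at 0.331 and 0.281 CPM, which is 3 counts in all. Class means elsewhere were 1.54 to 20.4 CPM. The log2 difference was −4.76 ± 1.10 (SE, edgeR adjusted p = 0.0260), a size that depends on the prior count. That call was lost without animal 2 (adjusted p = 0.651), without animal 3 (0.322) and with counts summed per sample (0.226). Cdh18 was called higher in class 5, where animals 2 and 3 stood at 42.2 and 39.5 CPM and animal 1 at 3.46. Its log2 difference was 2.63 ± 0.74 (SE; edgeR adjusted p = 0.0358), and it was lost without animal 2 (adjusted p = 0.438) and without animal 3 (0.146).

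The other 5 type II cadherins of the cell table were not called in any class. Cdh12 ran from a class mean of 10.6 CPM in class 3 to 85.6 in class 8 (smallest edgeR adjusted p 0.125), Cdh10 from 19.1 to 74.7 (0.0815) and Cdh11 from 22.2 to 58.0 (0.0728). Cdh24 ran from 1.14 to 8.10 CPM (0.266). Cdh6 ran from 0 to 4.73 CPM, with the highest level in class 3 (0.0593).

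Cdh13 (T-cadherin), which is held to the membrane by a lipid anchor and lacks the inner tail that binds catenins, was high in classes 3, 4 and 7. It stood at 199 and 215 CPM in class 3, at 167, 199 and 148 in class 4, and at 117, 111 and 204 in class 7. Class 2 reached at most 25.2 CPM and class 1 at most 14.8. Class 5 held 0, 0.357 and 0.282 CPM, which is 2 counts in all, and class 6 held 0 and 0.281. The 3 high classes overlapped with each other and with no other class. They were called higher at 4.24, 3.17 and 2.48 times the mean of the others, and class 5 was called lower, the smallest edgeR adjusted p being 1.54e-05. The low call in class 5 was lost without animal 1, 2 or 3 (adjusted p = 0.125, 1 and 1), while the 3 higher calls were kept in each. Cdh23, a long cadherin of sensory hair cells, stayed between 0 and 3.11 CPM and was not called (smallest adjusted p 0.0596).

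The delta-1 protocadherins Pcdh9, Pcdh7 and Pcdh11x were called in different classes, and Pcdh1 in none. Pcdh9 stood at 271 ± 19.6 CPM over all neurons (SD, n = 3 animals). In class 5 it stood at 589, 472 and 558 CPM, a mean of 540 ± 60.3 (SD, n = 3) and 1.98 times the mean of the other classes. The lowest of these lay below the 521 CPM of class 8 in animal 3. Class 5 was higher by 1.02 ± 0.10 on the log2 scale (SE; edgeR adjusted p = 2.97e-06), just past the fold required.

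Pcdh7, a protocadherin that binds a phosphatase inside the cell, was lowest in class 2, at 24.8, 34.6 and 45.0 CPM, a mean of 34.8 ± 10.1 (SD, n = 3) against 143 elsewhere. No value of another class was as low, the nearest being 58.0 CPM in class 3. Its log2 difference was −1.93 ± 0.24 (SE; edgeR adjusted p = 1.98e-05). Class 6 was highest, at 265 and 266 CPM in animals 2 and 3, above every other value. Its log2 difference was 1.33 ± 0.22 with an adjusted p of 0.00193, and 1.12 with an adjusted p of 0.192 without animal 2.

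Pcdh11x, an X-linked protocadherin, was called higher in class 1, at 80.0, 25.7 and 38.2 CPM, a mean of 48.0 ± 28.5 (SD, n = 3) against 15.4 elsewhere. Animals 2 and 3 were within the range of class 5, 23.6 to 41.2 CPM. The log2 difference was 1.74 ± 0.40 (SE; edgeR adjusted p = 0.0106). It was 1.11 (adjusted p = 0.33) without animal 1 and 1.86 (0.0645) without animal 2. Pcdh1 had class means between 4.72 and 11.6 CPM (smallest adjusted p 0.725).

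All 4 delta-2 protocadherins of the cell table were called. Pcdh8, an activity-regulated protocadherin that can pull N-cadherin from the synapse, was high in classes 1, 3 and 7 and low in class 2 and the layer 6-like classes 4 and 5. Class 3 held 128 and 194 CPM, class 1 held 105, 106 and 99.2, and class 7 held 33.0, 75.5 and 70.5. Class 2 held 10.3, 6.96 and 0.26 CPM, classes 4 and 5 held at most 3.86 in any animal, and class 5 had 1 count in all. Classes 1, 3 and 7 were called higher and class 5 lower, and Pcdh8 was also among the 10 leading genes of class 3, which was drawn without it. The call in class 1 was kept without each animal. In class 3 it was lost without animal 1 (adjusted p = 0.126) or 2 (0.209), in class 7 without animal 1 (0.0799) or 2 (0.0985), and in class 5 without animal 2 (0.0647) or 3 (1).

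Pcdh19, an X-linked protocadherin known from an epilepsy in people with mosaic expression, was called in 6 of the 8 classes. It was highest in class 3, at 72.5 and 135 CPM, a mean of 104 ± 44.5 (SD, n = 2), and stood at 82.8 and 47.1 in class 6, 34.9, 48.5 and 57.3 in class 7 and 13.4, 43.7 and 50.0 in class 1. Class 4 was lowest, at 1.01, 0.459 and 0.176 CPM, which is 4 counts in all, and class 5 held 0, 0.715 and 8.18. Every value of classes 1, 3, 6 and 7 was above every value of classes 4 and 5.

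On the log2 scale the differences of Pcdh19 were 3.56 ± 0.46 in class 3, 2.30 ± 0.45 in class 6 and 2.02 ± 0.40 in class 7 (SE). They were 1.46 ± 0.40 in class 1, −2.41 ± 0.61 in class 5 and −6.02 ± 0.83 in class 4 (edgeR adjusted p = 7.65e-05 for class 4). The call in class 4 was kept without each animal. In class 3 it was lost without animal 2 (adjusted p = 0.0876), as in class 6 (0.742) and class 7 (0.07). In class 1 it was lost without animal 1 (0.0752) or 2 (0.311), and in class 5 without animal 1 (0.112) or 2 (0.274). With counts summed per sample, a fit that holds classes 1, 2, 3 and 6 alone and so lacks the classes lowest in Pcdh19, the differences were 2.01 in class 3 (adjusted p = 0.0702), 0.30 in class 6 (0.952) and 0.10 in class 1 (0.940).

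The promoters of Pcdh8 and Pcdh19 are shown because both genes were highest in class 3 and lowest in class 4 and class 5. They are given as before, at chr14:79771313-79771562 and chrX:133688994-133689243, both on the minus strand. Capitals mark the letters ATTGG, the reverse complement of the CCAAT box, found 68 and 65 bases before the start, and in Pcdh8 also a TATA box (TATAAA) 30 bases before the start.
Pcdh8: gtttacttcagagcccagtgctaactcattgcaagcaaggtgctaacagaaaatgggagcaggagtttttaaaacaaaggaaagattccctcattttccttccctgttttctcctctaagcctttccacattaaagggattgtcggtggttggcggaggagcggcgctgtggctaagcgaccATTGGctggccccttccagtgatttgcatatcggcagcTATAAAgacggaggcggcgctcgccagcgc
Pcdh19: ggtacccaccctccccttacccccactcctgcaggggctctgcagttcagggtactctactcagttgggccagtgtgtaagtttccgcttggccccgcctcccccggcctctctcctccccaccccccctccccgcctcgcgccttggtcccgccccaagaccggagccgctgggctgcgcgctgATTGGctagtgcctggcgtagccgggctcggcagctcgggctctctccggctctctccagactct
The letters TATAAA, on either strand, occurred in 12.4% of all promoters and in 2 of the 25 promoters of members. Of 2 other motifs searched on both strands, the E-box CAGATG occurred in 14.4% of all promoters and 2 of the 25, and the nuclear receptor motif AGGTCA in 14.02% and 1 of the 25. Matches of the 4 motifs did not overlap in the 4 promoters shown.

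Pcdh17, which is known from cortico-basal ganglia circuits, was low in class 2 and high in class 7. Class 2 held 12.8, 14.6 and 11.2 CPM, a mean of 12.9 ± 1.71 (SD, n = 3) against 53.0 elsewhere, and every other value was at least 35.5. Class 7 held 82.0, 87.5 and 82.4 CPM, a mean of 84.0 ± 3.09 (SD, n = 3), all above the next value, 79.1 in class 4 of animal 1. The log2 difference was −2.001 ± 0.25 in class 2 (SE; edgeR adjusted p = 1.67e-05) and 1.10 ± 0.19 in class 7. The call in class 7 was lost without animal 2 (adjusted p = 0.0847) and without animal 3 (0.077).

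Pcdh10 was nearly flat with 1 exception. Class 7 held 25.4, 25.5 and 25.9 CPM, a mean of 25.6 ± 0.24 (SD, n = 3), against a mean of 71.6 and no value under 55.4 in the other 7 classes. This was a log2 difference of −1.46 ± 0.22 (SE; edgeR adjusted p = 0.000299). Pcdh20, a non-clustered protocadherin outside both delta groups, stood at 22.4, 4.70 and 14.1 CPM in class 1 and 12.5 and 9.67 in class 8, and at most 3.31 elsewhere. Both classes were called higher. The call in class 1 was lost without animal 1 (adjusted p = 0.122) and animal 3 (0.0616), and that in class 8 without animal 1, 2 or 3 (0.058, 0.131 and 0.152).

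**Figure D2:**
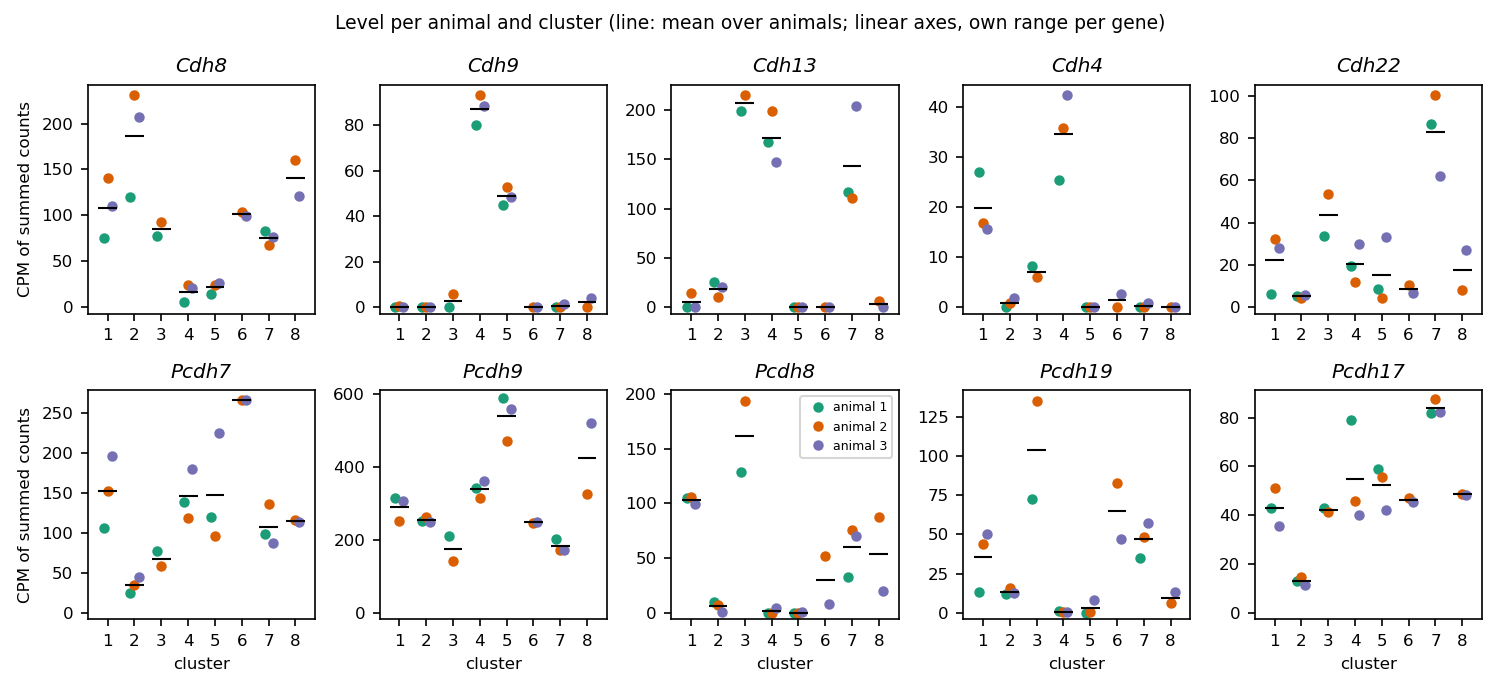
CPM of summed counts (vertical axes, linear, own range per gene) of 10 members in classes 1 to 8 (horizontal axes); each point is an animal and each line the mean over animals. Cdh9 rises above 5.64 CPM in classes 4 and 5 alone, where Cdh8 and Pcdh8 are lowest, and Pcdh17 is lowest in class 2.

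The layer 5 extratelencephalic-like classes 3 and 7 and the layer 6 classes 4 and 5 were then compared directly, a choice made after seeing the data. Between classes 3 and 7, 1 member was called, against 0.203% of all genes. Pcdh10, which guides the growth of axons in the forebrain, was higher in class 3, at 74.0 and 77.4 CPM beside 25.4, 25.5 and 25.9, with a log2 difference of 1.55 ± 0.28 (SE; edgeR adjusted p = 0.0168). Without animal 1, 2 or 3 the adjusted p was 0.264, 1 and 0.126. Pcdh17 was 1.11 ± 0.32 lower on the log2 scale in class 3 and did not pass (adjusted p = 0.235).

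Between classes 4 and 5, 4 members were called, against 3.68% of all genes, and all 4 were higher in class 4. They were Cdh4, Cdh13 and Cdh15, which held 0 to 2 counts in class 5, and Cdh10, at 91.3, 69.5 and 63.4 CPM in class 4 beside 12.1, 32.5 and 12.7 in class 5. The Cdh10 values did not overlap, and the log2 difference was 1.80 ± 0.50 (SE; edgeR adjusted p = 0.0439). Cdh10 lost its call without animal 1 (adjusted p = 0.279) and animal 3 (0.216), and Cdh15 without animal 2 (0.0594) and animal 3 (0.0861). Pcdh9 was 0.66 ± 0.15 lower in class 4 on the log2 scale (adjusted p = 0.0104), which is under the fold required.

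The clustered protocadherins fell into genes detected in nearly all neurons and genes detected in few. Pcdhga8 had a count in 748 of 765 cells (97.8%, exact Clopper-Pearson 95% interval 96.5 to 98.7) and Pcdha5 in 679 (88.8%, 86.3 to 90.9). Alpha transcripts share their last exons with each other, and so do gamma transcripts. How reads in shared exons were counted is not given in the sources used here, so these values may hold reads of other alpha or gamma genes. The 19 beta genes, which share no exons but are alike in sequence, were each detected in 1.44% to 15.3% of cells, with a median of 6.80%. Pcdhb9 led with 117 cells (15.3%, interval 12.8 to 18.04), followed by Pcdhb20 (12.7%) and Pcdhb17 (12.3%). These intervals cover counting error only.

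Each neuron had counts from few beta genes. With every cell thinned to 50000 counts, which left 704 cells and dropped 61 shallower ones, the median was 1 of 19 beta genes and the mean 1.10. No beta gene was detected in 34.1% of cells, 1 in 35.7%, 2 in 19.03% and 3 or more in 11.2%. The share with none was alike between animals, at 30.8%, 34.6% and 34.7%. Unthinned, it was 26.3%. Class 2 had the most beta genes per cell, a mean of 1.63 with 16.5% of cells at none, and class 5 had a mean of 0.839 with 46.4% at none; these are descriptions of cells, with no test. Over all 22 clustered genes of the table, the mean per cell was 3.12, 2.91 and 2.96 in the 3 animals.

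Each gene's share of cells is given with its level over the same thinned cells. Pcdhb9 had 16.8 CPM and a count in 13.6% of cells, and Pcdhb7 had 15.6 CPM in 9.09%. Among the other members, Cdh2 had 21.6 CPM in 33.7% of cells, Pcdh1 had 9.01 CPM in 21.0% and Cdh15 had 7.76 CPM in 5.82%. These are values per gene, not per length, and no level is ranked against that of another gene.

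**Figure D3:**
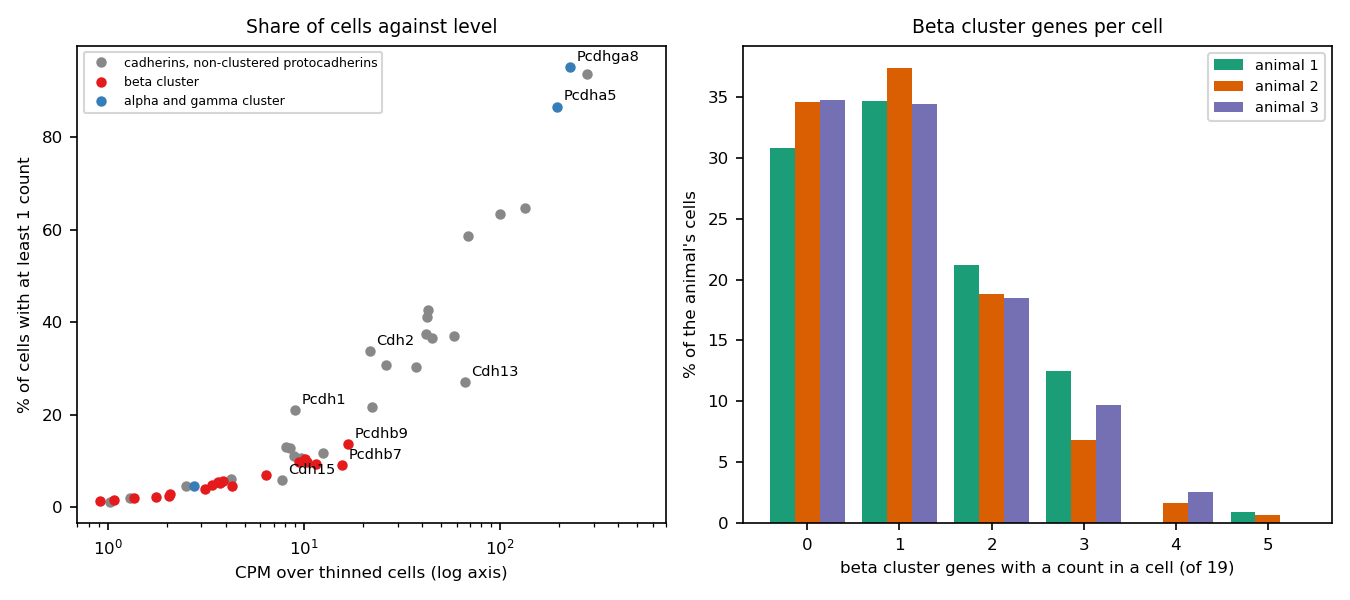
Left, share of thinned cells with at least 1 count (vertical axis, %) against level over those cells (horizontal axis, CPM, log scale) for the 47 members of the cell table; right, share of each animal's cells (vertical axis, %) by the number of beta genes with a count. Pcdhga8 and Pcdha5 lie near the top, the beta genes near the bottom, and 34.1% of all cells have none.

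Between classes, Pcdha5 was nearly flat and Pcdhga8 was lower in the layer 5 extratelencephalic-like classes 3 and 7. Pcdha5 had class means of 182 to 210 CPM (smallest edgeR adjusted p 0.662). Pcdhga8 was lower in class 3 (147 ± 13.2 CPM, SD, n = 2) and class 7 (148 ± 34.4, n = 3), with log2 differences of −0.79 ± 0.18 and −0.76 ± 0.15 (SE) and adjusted p of 0.0145 and 0.00328, short of the fold required. Its highest class mean was 313 ± 3.69 CPM in class 8. Pcdhb10 was the only clustered gene called, in class 2, at 4.27, 0.225 and 4.76 CPM with an adjusted p of 0.0489, and without animal 1, 2 or 3 it was not (0.136, 0.0802 and 0.518). The median SE of a beta gene's log2 difference was 1.20, above the difference of 1 required for a call, and the source of this error was not tested.

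Along the anterior to posterior axis, Cdh13 rose toward the posterior level and no other member passed the test. Of 46 members tested, 1 was called posterior against anterior over all neurons, against 0.103% of all genes. Cdh13 stood at 31.9, 51.1 and 18.9 CPM in the anterior level of animals 1, 2 and 3, at 94.9, 89.8 and 25.3 in the medium level, and at 139, 134 and 94.6 in the posterior level. The posterior values were all above the anterior ones, and animal 3 was lowest at each level. The log2 difference was 1.95 ± 0.28 (SE; edgeR adjusted p = 0.0440; higher in 3 of 3 animals). It was 1.90 (adjusted p = 0.837) without animal 1, 2.23 (0.0584) without animal 2 and 1.72 (0.153) without animal 3.

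Classes 3 and 7, both high in Cdh13, made up 4.44%, 12.3% and 3.81% of anterior cells and 51.4%, 38.5% and 22.5% of posterior cells in animals 1, 2 and 3. Without their cells, an alternative chosen after seeing the data, the log2 difference was 1.41 ± 0.41 (SE) and the edgeR adjusted p was 1.00. Cdh13 then stood at 27.3, 40.2 and 12.7 CPM in the anterior level and 68.2, 71.6 and 47.9 in the posterior level, still without overlap. Within class 4 alone it stood at 156, 108 and 71.6 CPM in the anterior and 205, 262 and 222 in the posterior level, a log2 difference of 1.13 ± 0.35 with an adjusted p of 1.00. Sums within class 4 came from 6 to 14 cells. The other classes with both levels were mixed. From anterior to posterior, class 2 went from 4.68 to 41.9 CPM in animal 1 and from 27.1 to 12.1 in animal 3. Class 1 went from 0.279 to 51.6 CPM in animal 2 and from 0.182 to 0.771 in animal 3. Class 6 stayed at 0 in animal 2 and went from 0 to 0.390 CPM in animal 3.

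**Figure D4:**
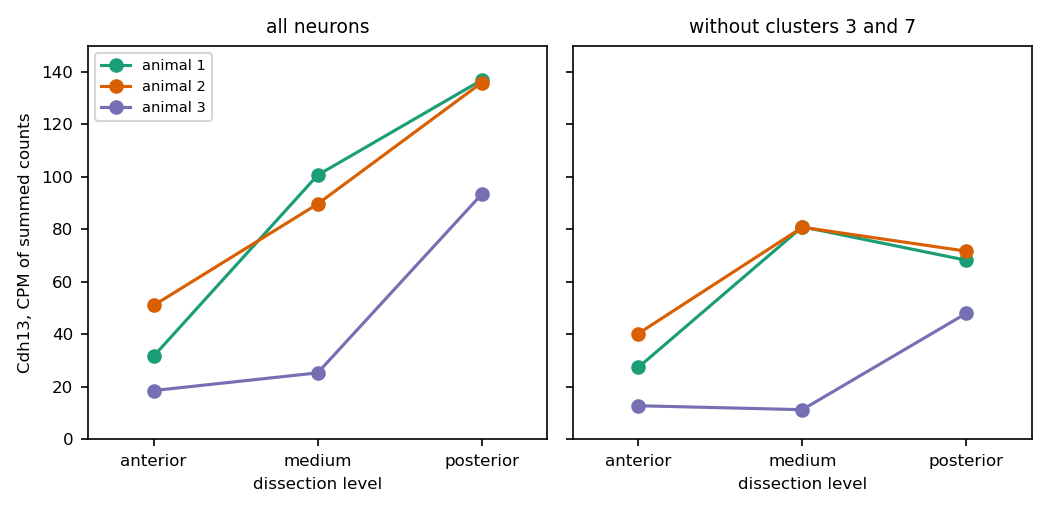
CPM of Cdh13 (vertical axis) at the 3 dissection levels (horizontal axis) in each animal (lines), over all neurons (left) and without clusters 3 and 7 (right). Posterior values lie above anterior ones in 3 of 3 animals in both panels, and the posterior range drops from 93.3 to 137 CPM on the left to 47.9 to 71.6 on the right.

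Pcdh19 had the same direction without passing: 5.04, 28.4 and 32.1 CPM in the anterior level and 48.7, 76.9 and 40.5 in the posterior level, a log2 difference of 1.60 ± 0.44 (SE; edgeR adjusted p = 0.502). It was called by DESeq2, which called 2 members, Cdh13 and Pcdh19. Pcdh19 was highest in class 3, whose 76 cells all came from the posterior level. Without the cells of classes 3 and 7, edgeR called 0 of the 46 members, so Pcdh19 was not called there either. The part of class 3 alone in the Pcdh19 difference was not tested. At an unadjusted p under 0.05 stood 5 of the 46 members between posterior and anterior, beside 5.85% of all genes. Medium against anterior gave 0 members called by edgeR and 0 by DESeq2, against 0.00734% of all genes, with 3 and 5 members at an unadjusted p under 0.05, beside 4.20% and 6.15% of all genes.

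Within a class, no member was called between posterior and anterior. The counts were 0 of 37 members tested in class 1 (0% of all genes), 0 of 26 in class 2 (0%), 0 of 22 in class 4 (0.0115%) and 0 of 25 in class 6 (0%). DESeq2 also called 0. Of 110 pairs of a member and a class, 6 had an unadjusted p under 0.05 by edgeR and 13 by DESeq2, beside 3.66% and 7.35% of the pairs over all genes.

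In the sections, spots were grouped into 10 zones, again without cadherins, protocadherins or partner genes and with each gene centred within its section. Zones are called by leading genes, because a spot can hold several cells. A fold in a zone can come from more cells of a type or more RNA per cell, which cannot be told apart. Of the 92 members, 25 were tested, 8 had no count and 18 had 1 to 3 counts. Of those tested, 14 differed in at least 1 zone, against 12.7% of 10550 genes, with 17 calls higher and 14 lower. The zones counted 4 members called in zone 1 (2.67% of all genes), 9 in zone 2 (4.41%), 3 in zone 3 (1.86%), 6 in zone 4 (3.1%) and 2 in zone 5 (1.87%). They counted 2 in zone 6 (0.73%), 0 in zone 7 (1.14%), 5 in zone 8 (1.94%), 0 in zone 9 (3.18%) and 0 in zone 10 (0.0664%). The sections number only 2, and whether they came from separate animals is not stated. With the section as a block, p-values rest on how zone levels differ between these 2 sections beyond their overall difference. They are not read as a spread between animals.

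Zone 2 (251 spots, led by Dlk1, Calb2 and Dcn) was higher in 7 members. Cdh4 stood at 46.6 CPM in S4 and 59.5 in S8, 4.27 times the mean of the other zones, and was among the 10 leading genes of the zone, which was drawn without it. Its log2 difference was 2.46 ± 0.27 (SE). Pcdh8 followed at 135 and 105 CPM (1.88 ± 0.17), then Cdh9 at 31.5 and 33.2 (1.71 ± 0.30) and Pcdh20 at 58.3 and 25.2 (1.54 ± 0.27). Pcdh19 stood at 128 and 105 CPM (1.46 ± 0.16), Cdh13 at 96.8 and 151 (1.20 ± 0.16) and Pcdh17 at 81.6 and 128 (1.09 ± 0.18). For Cdh4, Pcdh8, Cdh9, Pcdh19 and Cdh13 both sections lay above every value of the other zones. Meningeal fibroblast markers summed to 78.9 to 179 CPM in zone 2, 88.8 to 98.1 in zone 9 and 4.4 to 60.4 in the other zones. Of these 4 markers, Dcn alone was both detected in 25% of zone 2 spots and above the other zones by a log2 of 1. The part of these markers in the levels of the members was not tested.

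Cdh20 and Cdh6 were low in zone 2, at 4.67 and 4.58 CPM and at 2.33 and 11.5, with log2 differences of −1.56 ± 0.45 and −1.38 ± 0.39 (SE; edgeR adjusted p = 0.0172 and 0.0144). Cdh6, which was near 0 in most classes of dissociated neurons, marked 3 other zones. It stood at 44.2 and 37.1 CPM in zone 6 (190 spots, led by Myl4, Trbc2 and Npnt), where it was among the 10 leading genes, and at 42.5 and 39.9 in zone 8 (152 spots, led by Rspo1, Pamr1 and Rorb). It stood at 29.3 and 36.9 in zone 3 (249 spots, led by Stard8, Evc2 and Nectin3). The log2 differences were 1.44 ± 0.25, 1.45 ± 0.27 and 1.07 ± 0.25. No value of the other 7 zones exceeded 23.8 CPM.

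Zone 4 (219 spots, led by Foxp2, Trbc2 and Ighm) was low in 6 members and high in none. Cdh22 stood there at 4.36 and 9.39 CPM (−1.88 ± 0.34), Cdh7 at 3.27 and 5.87 (−1.63 ± 0.51), Cdh8 at 5.44 and 5.87 (−1.54 ± 0.40) and Pcdh20 at 5.44 and 7.04 (−1.47 ± 0.45). Pcdh8 stood at 11.98 and 18.8 CPM (−1.42 ± 0.29) and Pcdh19 at 19.6 and 19.96 (−1.38 ± 0.24; log2 differences ± SE). Oligodendrocyte markers summed to 4833 to 5924 CPM in zone 4, 2643 to 3315 in zone 1 and 2324 to 2593 in zone 6, beside 651 to 2708 in the other zones. Their part in the zone levels was not tested. Ighm was also among the 10 leading genes of classes 4 and 5 of the dissociated neurons. Of the 6 members low in zone 4, Cdh8, Pcdh8 and Pcdh19 were also called lower in class 5, and Cdh22, Cdh7 and Pcdh20 were not called there. Cdh9, Cdh13, Cdh20 and Pcdh9, called in class 5, were not called in zone 4. A match between zone 4 and a class was not tested.

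In zone 1 (286 spots, led by Tshz2, Nrep and Slc17a6), Cdh8 and Cdh20 were higher, at 25.3 and 34.2 CPM (1.09 ± 0.25) and 25.3 and 23.8 CPM (1.07 ± 0.28), and Cdh4 and Pcdh20 were lower. Zone 5 (193 spots, led by Penk and Hpcal1) was high in Cdh4, at 38.8 and 37.1 CPM (1.97 ± 0.31), and low in Pcdh11x, at 4.19 and 8.24 (−1.73 ± 0.45). Cdh20 was also higher in zone 6, at 30.6 and 32.6 CPM (1.48 ± 0.28, ± SE throughout). Oligodendrocyte markers summed to 2324 to 2593 CPM in zone 6 and to 2643 to 3315 in zone 1. In zone 4, where they summed to 4833 to 5924 CPM, Cdh20 stood at 2.18 and 12.9 CPM. In zone 10, where they summed to 2137 to 2708 CPM, Cdh20 stood at 9.80 and 9.66. The part of these markers in the Cdh20 levels was not tested. In zone 3 Cdh9 was lower, at 4.06 and 3.82 CPM (edgeR adjusted p = 0.0357), and Cdh7 was higher, at 27.6 and 19.1 (adjusted p = 0.0483). Zone 8 was low in Pcdh17, at 26.9 and 14.5 CPM (−1.43 ± 0.29), and in Pcdh8, at 19.8 and 16.3 (−1.16 ± 0.31). It was high in Pcdh20 at 38.3 and 32.6 CPM (1.29 ± 0.32) and in Cdh12 at 26.9 and 10.9, where another zone held no count. 

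DESeq2, the other tool run, kept 15 of the 31 zone calls. These were the 7 higher calls in zone 2, Cdh22, Pcdh8 and Pcdh19 in zone 4, Cdh4 in zone 5, Cdh6 and Cdh20 in zone 6, and Cdh6 and Pcdh17 in zone 8. It lost all 4 calls in zone 1 and all 3 in zone 3, both lower calls in zone 2, and Cdh7, Cdh8 and Pcdh20 in zone 4. Also lost were Pcdh11x in zone 5 and Cdh12, Pcdh8 and Pcdh20 in zone 8, and among the calls lost the DESeq2 adjusted p ran from 0.0544 to 0.418.

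**Figure D5:**
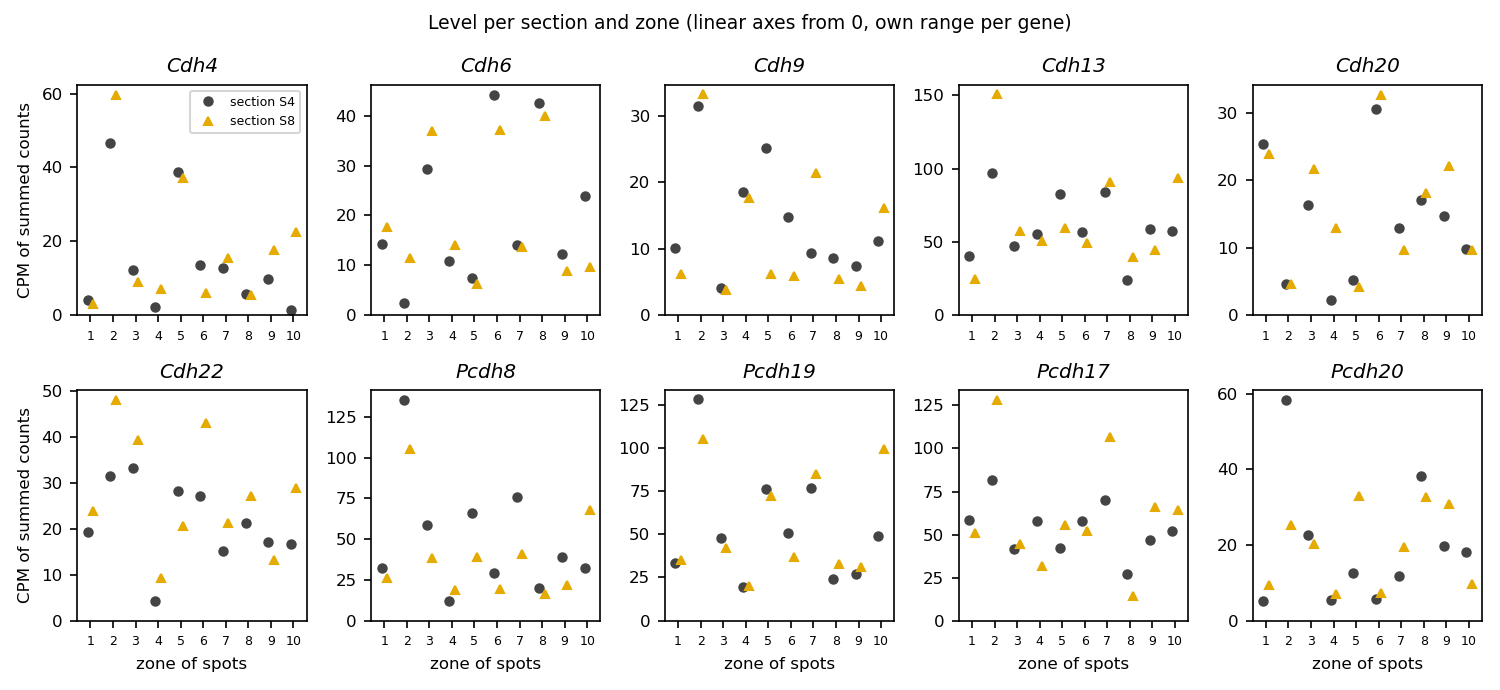
CPM of summed counts (vertical axes, linear from 0, own range per gene) of 10 members in zones 1 to 10 (horizontal axes) in sections S4 (circles) and S8 (triangles). Cdh4, Cdh9, Cdh13, Pcdh8 and Pcdh19 peak in zone 2, while Cdh6 peaks in zones 6 and 8 and Cdh22 is lowest in zone 4.

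Of the 14 members called in zones, 12 were also called in classes of dissociated neurons. The 2 others were Cdh6 and Cdh12. Of the 19 members called in cells, 16 were tested in zones. The same overlap over all genes is not given here, so these counts are not read as a trait of the members. Classes and zones share no samples, but a zone is not a class, so a match of direction between them was not tested.

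Levels differed between the assays for some members. The tables were normalized separately, and no test was made. Cdh2 stood at 82.9 CPM over spots and 20.8 over dissociated neurons, Pcdh1 at 48.2 and 8.40, Cdh6 at 20.4 and 1.37, and Pcdh20 at 18.4 and 3.78. In the other direction, Pcdh9 stood at 87.4 and 271 CPM, Cdh8 at 17.4 and 95.8, and Cdh12 at 8.72 and 44.8. Pcdh7 was alike, at 136 and 116. Among the clustered genes, the alpha and gamma families differed widely: Pcdha5 had 1 count in the sections and 22176 in the cells, and Pcdhga8 had 5 and 26524. The 14 alpha genes together had 27 counts in the sections and the 21 gamma genes 159, of which Pcdhga12 had 38, while the 22 beta genes had 1340. Summed over each family, the beta genes stood at 97.4 and 81.1 CPM in the 2 sections and 110.3 CPM in the cells.

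Members known from cells other than neurons were mostly measured in the sections only. Cdh5 (VE-cadherin), the cadherin of endothelial junctions, had 87 counts in 84 spots. Its highest level was in zone 9 (133 spots, led by Ptgds, Vim and Gfap), at 7.36 and 26.5 CPM, and it was not called there (log2 difference 1.45 ± 0.64, SE; edgeR adjusted p = 0.209). Cdh19, a cadherin of glia, had 76 counts and Pcdh18 had 67, too few for the test. Cdh1 (E-cadherin) had 4 counts, Pcdh12 had 2 and Cdh3 had none, which allows a total of up to 3 counts. Pcdh15, a protein of hair cell tip links, had 194 counts in 176 spots, with zone means of 7.36 to 17.4 CPM and no call.

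Of the genes that act beside these adhesion proteins, 13 of 38 tested in the cell table were called in at least 1 class, beside the 18.1% of all genes. Unlike those of the members, calls of these partner genes were not followed over the alternatives, such as an animal left out. Among the catenins, which tie cadherins to actin, 3 of 9 were called. Ctnna1, an alpha catenin, was higher in class 2 at 63.7 ± 7.89 CPM (SD, n = 3; log2 difference 1.21 ± 0.28, SE) and lower in class 4 at 10.99 ± 6.70 (−1.67 ± 0.36). Ctnna2, the neural alpha catenin, was higher in class 7, at 151 ± 29.5 CPM (1.19 ± 0.20), and Ctnnd1, which steadies cadherins at the membrane, was higher in classes 1 and 2 and lower in class 8. Class 2 was thus high in both Cdh2 and Ctnna1.

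Among the atypical cadherins 4 of 9 were called, each higher in 1 class: Fat3 and Fat4 in class 2, Clstn2 in class 4 and Fat1 in class 7. Of 8 effectors of protocadherins, 2 were called. Ptk2, a kinase that clustered protocadherins hold in check, was higher in class 5, at 147 ± 5.45 CPM (1.22 ± 0.20), and its relative Ptk2b was lower in class 6 (−1.19 ± 0.18). Of 8 regulators of the protocadherin array, 1 was called. Smchd1, a silencing protein, was higher in class 8 at 168 ± 70.9 CPM (SD, animals 2 and 3 alone). Its log2 difference was 1.15 ± 0.32 (SE, edgeR adjusted p = 0.0429). Ctcf and the cohesin genes were not called in any class.

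Nectins, which form adhesions together with cadherins, were called in 3 of 4 cases. Pvrl3 (nectin-3) was among the 10 leading genes of class 1, at 115, 31.2 and 50.6 CPM, and was at 0 in all 3 animals of class 7. In the sections 6 of 35 partner genes were called, beside the 12.7% of all genes, with nectins at 2 of 3, catenins at 2 of 8, atypical cadherins at 2 of 8 and both remaining lists at 0 of 8. Nectin3, the current name of the same gene, stood at 62.6 and 71.3 CPM in zone 3 (2.05 ± 0.18), where it was among the leading genes, and Jup (plakoglobin) at 72.9 and 82.2 in zone 4 (1.43 ± 0.19).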

How the data were processed

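Per the values themselves, both deposited tables hold raw integer counts for each gene in each cell or spot, made by the authors and not normalized. The submitters' processing notes name Seurat and the build NCBIM37 for the cells, and Seurat, Space Ranger, NCBIM37 and mm10 for the sections. The aligner, annotation, filters, use of strand, and whether the cell counts are reads or molecules are not given in the sources used here. Genes overlapping on opposite strands and near-identical genes may therefore share counts, and intervals cover counting error only.

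The animal of each cell came from a deposited table and its level from the column headers. The 765 cells carried 331 well barcodes, of which 237 occurred in more than 1 sample, and 0 cells shared both sample and barcode. No column was without a sample (0), and no doublet caller was run. Spots named S4 and S8 were not tied to a labelled section. S4 had 8436518 counts and S8 6389042, with medians of 8266.5 and 6705 per spot.

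Clustering used scanpy 1.11.5 in Python 3.11.15 (counts scaled to 10000 and logged, 2000 variable genes, 30 components, 15 neighbours, Leiden resolution 1, seed 1), leaving out members and partner genes (85 genes in cells, 134 in spots). Names needed every marker of a type that the table held, and no fewer than 3, to be detected in 25% or more of the cluster and to exceed the average of the remaining clusters by a log2 of 1. The 10 top genes could not hold more markers of a second type than of the first. Counts were summed per animal and class (at least 10 cells), per animal and level, per animal and level within a class (at least 5 cells), or per section and zone (at least 10 spots). In R 4.3.3, edgeR 4.0.16 tested the sums (TMM scaling after filterByExpr, glmQLFit, glmQLFTest, Benjamini-Hochberg adjustment over all genes), with the animal or section as a block. Sums of 1 animal or 1 section are paired by that source. The scripts were tested on simulated data. CPM of classes and zones use TMM library sizes, and the SE is the log2 difference over the square root of F. The threshold was an adjusted p under 0.05 and a log2 difference of at least 1, and the floor 3 counts. Alternatives were DESeq2 1.42.0, RLE factors, no low-count filter, no block, each animal left out, thinned cells and at least 20 cells. Others were sums per sample, resolution 0.5 and clusters from all genes. For zones, each section was also taken alone, without a test.

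Members named are those called with up to 5 of the largest differences per class, zone or level, the 10 highest over all neurons, those called in both assays, the 5 clustered genes in most cells, and those known from other cell types. Further members are given by range. The members, lists and tests were chosen with earlier results of these data known. RefSeq promoters (GRCm38.p6) matched 22 members with 25 promoters.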

Additional observations from a re-analysis of the deposited data

Results flagged for a closer look

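Clusters 9 to 11 had too few cells per animal for the test. In 4 members the layer 6b-like cluster 11 (11 cells, from animals 1 and 2) stood at over 2 times the level of the highest class. Cdh13 reached 588 CPM there, in 10 of 11 cells, beside 207 in class 3, with 469 and 603 CPM in the 2 animals. Pcdh17 reached 205 CPM (453 and 174), Pcdh11x 113 CPM (237 and 97.2) and Pcdhb12 33.7 CPM, the last in 4 cells. In cluster 10, an unnamed cluster of 11 cells, Cdh6 stood at 9.94 CPM from 12 counts in 1 cell, and Pcdhb15 at 13.2 CPM from 16 counts in 2 cells.

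The posterior and anterior levels of Pcdh7 stood in opposite order in 2 classes. In class 1 both animals with both levels were higher posterior than anterior (133 to 144 and 155 to 199 CPM in animals 2 and 3), a mean log2 ratio of 0.24. The medium level was the highest of the 3 levels in both of these animals, at 183 and 265 CPM. In class 2 both were lower (70.2 to 4.74 and 66.6 to 36.7 CPM in animals 1 and 3), a mean log2 ratio of −2.24, with 16.1 and 36.8 CPM at the medium level. The difference between the classes was not tested, and neither class passed the test on its own (edgeR adjusted p = 0.987 in class 1 and 1.00 in class 2).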

How the results depend on the processing

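The number of members called in at least 1 class was 19 and ran from 14 (sums per sample) to 21 over the alternatives, with 15 to 18 on leaving out an animal. Of the 45 class calls, 16 were kept in every alternative that gave a value; sums per sample, which leave classes 1, 2, 3 and 6 alone, kept 13 of 19 and made 20 in all, and the fit without animal 2 made 24. Where an animal left out leaves a class 1 sample, that sample is assumed to vary like the others. Members called in at least 1 zone numbered 14, with 10 by DESeq2 and 16 without the low-count filter. Of the 31 zone calls, 15 were kept by DESeq2, with RLE factors, without the low-count filter and with no block alike. No zone fit left a section out, so whether these calls hold without a section was not tested. The single call posterior against anterior became 2 by DESeq2, 0 with no replicate block, 0 to 0 on leaving out an animal and 0 without clusters 3 and 7 (added after seeing the data). With no replicate block, in which the pairing of sums by animal or section is dropped, 21 members were called in classes, 12 in zones, 0 between medium and anterior and 0 within classes, the last 2 staying at 0 throughout. It kept 44 of the 45 class calls, losing Cdh4 in class 3, and 23 of the 31 zone calls. The mean number of clustered protocadherins per cell was 2.999 in thinned cells, 3.25 unthinned and 2.65 where at least 2 counts were required. Among 82 results, 695 alternative values were computed, of which 550 stayed the same, 121 lost the call, 23 moved and 1 turned. The last was Cdh4 in class 3, −0.90 with sums per sample (edgeR adjusted p = 0.899), where the cause was not tested. Same meant that direction and call were kept. A zone value from 1 section alone has no test or call, and same there meant within 1 SE of the main difference. All 23 that moved were of this kind. Clusters of cells from all genes were identical to the main ones, so their values could not differ. Clustering at resolution 0.5, and zones drawn from all genes, number their groups differently, so single genes have no value there. Thinned to 50000 counts, the cells kept 34 of the 45 class calls.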
